A study of Mus musculus with 14 samples.

Results

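Schwann cells are the glia of peripheral nerves, and 7 genes that mark them or build their myelin were followed through ascending aortas of C57BL/6 mice. The 7 genes, Sox10, Cdh19, S100b, Mbp, Pmp22, Prx and Ncam1, were chosen by name from the 32289 genes of the deposited table. Bulk RNA-seq was made from 14 libraries taken in the 6th week: 3 from mice given PBS, 4 given BAPN, 3 given BAPN with Cilengitide (labelled BAPN+Cilengitide) and 4 given BAPN with SB273005 (labelled BAPN+SB273005). BAPN, beta-aminopropionitrile, blocks lysyl oxidase, the enzyme that crosslinks collagen and elastin, and both added compounds are inhibitors of integrin αV. All mice of the 11 libraries outside PBS therefore carried BAPN, and no group received an inhibitor alone. The labels used here give no dose, no age and no sex, and do not say whether replicates were separate animals, so that p-values measure the spread between these libraries.

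Nerve bundles run in the outer coat of the aorta and bring sympathetic and sensory axons to it. Nonmyelinating Schwann cells ensheath thin axons together, while myelinating Schwann cells wrap a single thicker axon in compacted membrane. Both kinds depend on the transcription factor Sox10, and myelination further needs Egr2. Most of these genes are also used outside nerve, which matters in a tissue made mainly of smooth muscle cells, fibroblasts and leukocytes. In bulk RNA, fewer cells of a type and less RNA per cell cannot be told apart.

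Of the 7 genes, 6 reached an FPKM (the fragments of a gene divided by its transcript length and by the size of the library) of 1 or more in at least 3 libraries and entered the test over 13294 genes. Cdh19 reached that level in 1 library and is given by its values and by a fit with no filter. Differences are log2 differences from edgeR's quasi-likelihood test, ± its SE, on estimated counts. A gene passed with a Benjamini-Hochberg adjusted p under 0.05 over all genes tested.

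Total estimated counts were 49027885 to 72584877 per library. The libraries fell into 2 sets by the class II gene H2-Ea, which had 0 counts in 6 (PBS replicates 1 to 3 and BAPN+SB273005 replicates 1 to 3) and 83 to 130 in the other 8. That set cannot be told apart from the group in BAPN vs. PBS and in BAPN+Cilengitide vs. PBS. BAPN+SB273005 replicate 2 stood apart from the other 13 libraries: the summed FPKM of 8 smooth muscle genes was 1180 there and 4620 to 10700 elsewhere. The comparisons with PBS share the same 3 PBS libraries, and those with BAPN the same 4 BAPN libraries.

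The start regions of Pmp22 and Prx are shown because transcripts from different first exons of these genes were measured separately. RefSeq promoter entries (build GRCm38.p6) matched 3 of the 7 genes, Prx, S100b and Pmp22, in 6 windows; Mbp, Sox10, Cdh19 and Ncam1 had no entry. Each line holds the 250 bases before a start, on the plus strand, and capitals mark the core of the motif bound by Egr proteins (GCGTGGG, found here as its reverse complement CCCACGC).
Pmp22 most upstream first exon, chr11:63128732-63128981: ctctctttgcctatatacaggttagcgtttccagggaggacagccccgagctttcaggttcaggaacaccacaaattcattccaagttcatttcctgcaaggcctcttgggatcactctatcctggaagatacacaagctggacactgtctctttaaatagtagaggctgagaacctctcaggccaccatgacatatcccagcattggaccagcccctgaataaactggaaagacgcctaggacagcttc
Pmp22 next first exon, chr11:63131207-63131456: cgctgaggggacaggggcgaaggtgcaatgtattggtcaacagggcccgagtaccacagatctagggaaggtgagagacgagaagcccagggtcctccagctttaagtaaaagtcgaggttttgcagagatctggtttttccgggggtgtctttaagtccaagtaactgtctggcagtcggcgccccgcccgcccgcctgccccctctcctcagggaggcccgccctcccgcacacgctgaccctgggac
Prx upstream start, chr7:27499074-27499323: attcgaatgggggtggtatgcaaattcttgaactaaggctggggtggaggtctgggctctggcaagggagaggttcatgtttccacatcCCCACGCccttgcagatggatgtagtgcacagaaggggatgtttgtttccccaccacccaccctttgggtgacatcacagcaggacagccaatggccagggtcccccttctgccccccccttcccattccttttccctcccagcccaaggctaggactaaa
The window of the most upstream Pmp22 exon ends at the base before that exon's first base in the deposited table, while the next one ends short of the first base deposited for its transcript (63131512). Searched on both strands, the Egr core was in 1 of the 6 windows, that of Prx, with its first base 161 bases before the start, and it was in 4.3% of 32851 RefSeq windows of the same length. The Sox core ACAAAG (reverse complement CTTTGT) was in none of the 6 windows and in 16.5% of all windows. These matches describe letters in a window and carry no measurement of binding.

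The 7 genes differed widely in level, and the median of Pmp22 was 90.3 times that of Sox10. Per length of transcript, the median over 14 libraries was 89.3 FPKM for Pmp22, 13.7 for Ncam1, 4.45 for S100b, 2.91 for Prx, 1.77 for Mbp, 0.989 for Sox10 and 0.561 for Cdh19. Pmp22 and Ncam1, a myelin membrane gene and an adhesion gene that are both widely used outside nerve, thus stood above Sox10 and Cdh19, which are more restricted to the lineage. The ranges of Pmp22 (74.8 to 104 FPKM) and Ncam1 (3.74 to 22.9 FPKM) did not overlap, and every other pair of neighbours in this order overlapped. Within libraries the order was steadier: Sox10 was above Cdh19 in 14 of 14 libraries, Mbp above Sox10, Prx above Mbp and Ncam1 above S100b in 13 each, and S100b above Prx in 11. Cdh19 and Ncam1 varied most, with a highest library 6.22 and 6.14 times the lowest, and Pmp22 least, at 1.38 times.

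**Figure D1:**
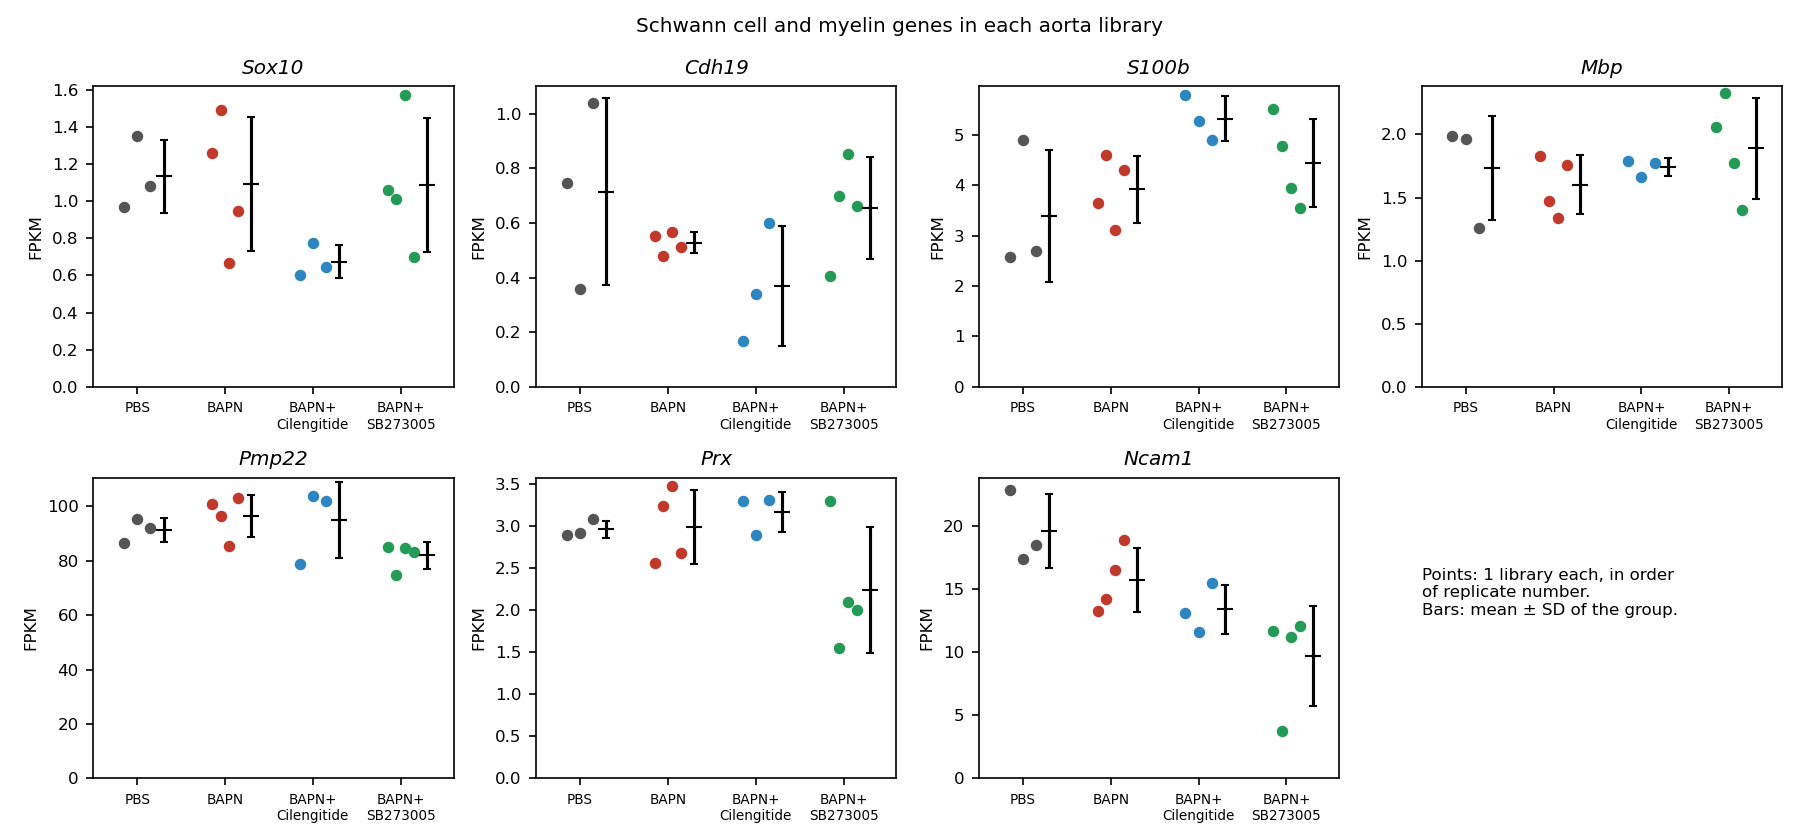
FPKM of each of the 7 genes (y axes, from 0, a separate scale per gene) in the 14 libraries by group (x axes); points are libraries and bars are group means ± SD. The lowest Ncam1 point is BAPN+SB273005 replicate 2 at 3.74 FPKM, and all 3 BAPN+Cilengitide points of Sox10 lie under the 3 PBS points.

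RNA of Schwann lineage genes was present in every library. Sox10, Cdh19 and S100b were above 0 FPKM in all 14 libraries, and Erbb3, the neuregulin receptor of Schwann cells, was at 0.507 to 0.841 FPKM, with overlap between all groups. The central counterpart of these cells was near absent: 4 oligodendrocyte genes (Mog, Mobp, Opalin, Olig2) summed to at most 0.262 FPKM. Melanocytes, which also use Sox10, were represented by Mitf, which other cells make too (1.79 to 3.21 FPKM), while their pigment genes Pmel and Mlana were at 0.115 to 0.492 and 0.0526 to 0.552 FPKM and Dct did not exceed 0.0904 FPKM.

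Of the 6 genes tested, 1 passed in 1 of the 6 comparisons, Ncam1 in BAPN+SB273005 vs. PBS. In that comparison edgeR called 13.2% of all genes tested in either direction and 5.38% lower. In BAPN vs. PBS 0 of 6 passed, against 0.233% of all genes; 0 of 6 had an unadjusted p under 0.05, and 0 passed with DESeq2 or with limma. In BAPN+Cilengitide vs. PBS 0 of 6 passed, against 5.58%; Sox10 and S100b had an unadjusted p under 0.05, and 0 passed with DESeq2 or limma. The 3 comparisons among BAPN-fed groups had 0 of 6 passing each, in a background of 0.0% (BAPN+Cilengitide vs. BAPN), 0.0301% (BAPN+SB273005 vs. BAPN) and 0.0% (BAPN+SB273005 vs. BAPN+Cilengitide) with edgeR. In those, 0, 1 (Ncam1) and 2 (Sox10 and Prx) of the 6 had an unadjusted p under 0.05, and 0 passed with DESeq2 or limma.

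The FPKM of the groups did not overlap for 3 of 6 genes in BAPN+Cilengitide vs. PBS (Sox10, S100b and Ncam1; 31.9% of all genes tested), and for 2 in BAPN+SB273005 vs. PBS (Pmp22 and Ncam1; 23.2%). They did not overlap for 1 of 6 in BAPN+Cilengitide vs. BAPN (S100b; 10.5%) and for 2 of 6 in BAPN+SB273005 vs. BAPN (Pmp22 and Ncam1; 7.87%). In BAPN vs. PBS (14.6%) and in BAPN+SB273005 vs. BAPN+Cilengitide (6.53%) 0 of 6 separated. The median log2 difference over the 6 genes lay between −0.22 and 0.07 in the 6 comparisons, and that over all genes between −0.02 and 0.02.

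**Figure D2:**
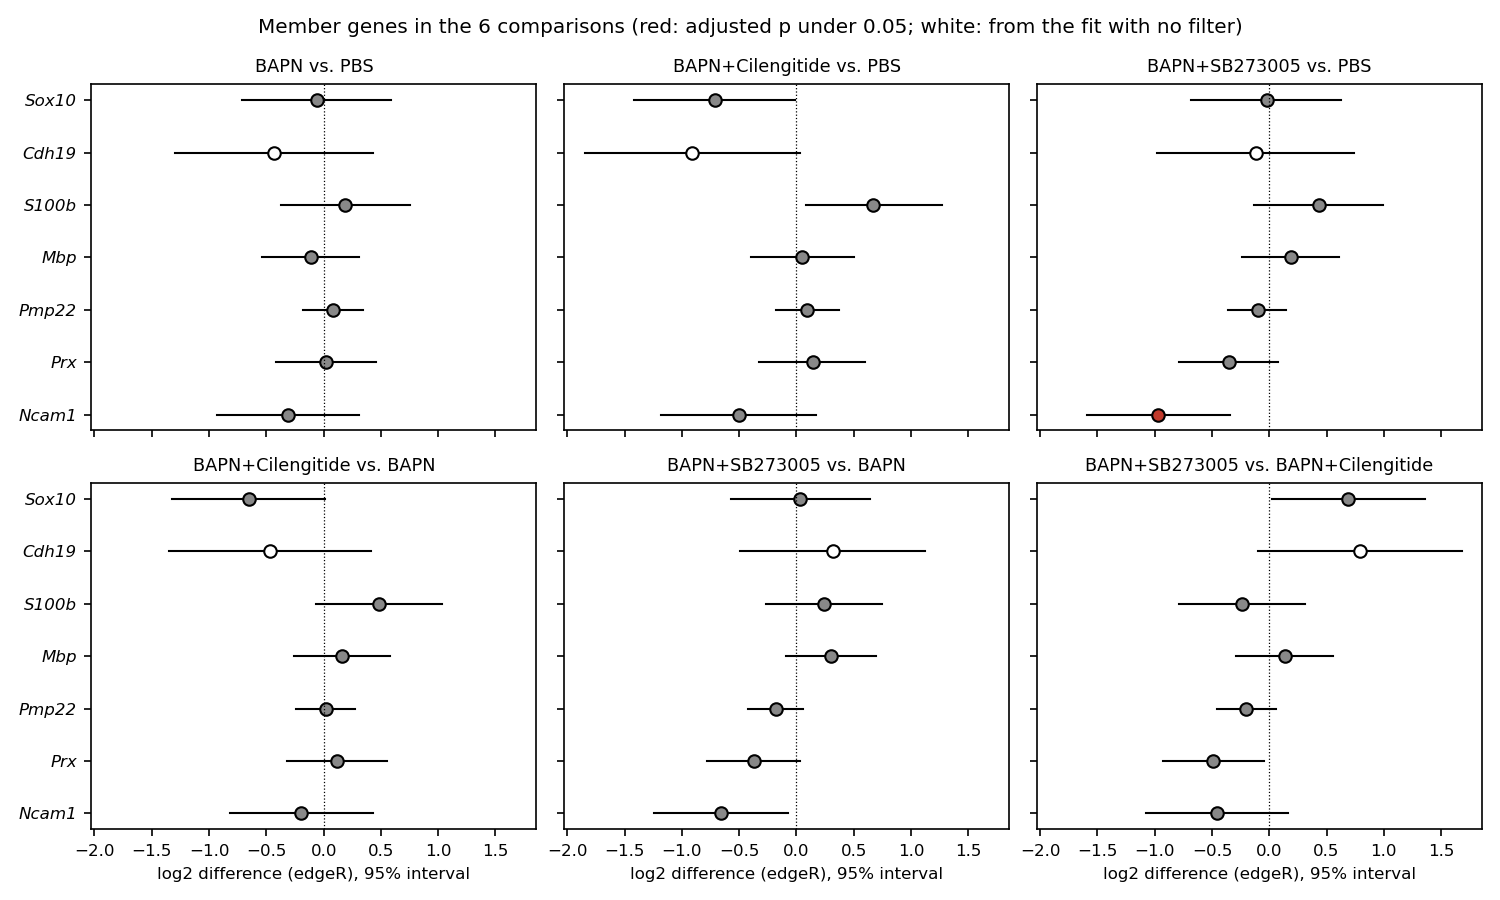
Log2 difference of each gene with its 95% interval (x axes) in the 6 comparisons; red marks an adjusted p under 0.05 and white points are Cdh19, from the fit with no filter. Ncam1 in BAPN+SB273005 vs. PBS, at −0.97, is the one red point, and the widest intervals belong to Cdh19.

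Sox10 is the transcription factor that specifies and maintains the Schwann lineage (ENSMUSG00000033006, chr15:79154908-79165240, minus strand). It was at 0.969, 1.35 and 1.08 FPKM in PBS replicates 1 to 3 and at 1.26, 1.49, 0.668 and 0.948 FPKM in BAPN replicates 1 to 4. It was at 0.601, 0.772 and 0.647 FPKM with BAPN+Cilengitide and at 1.06, 1.01, 1.57 and 0.698 FPKM with BAPN+SB273005. The 3 BAPN+Cilengitide libraries lay below all 3 PBS libraries. Replicates 1 and 3 of BAPN+Cilengitide also lay below every BAPN and BAPN+SB273005 library, and replicate 2 lay above the lowest library of each. The difference of BAPN+Cilengitide from PBS was −0.71 ± 0.33 (95% interval −1.42 to −0.01; edgeR adjusted p = 0.241) and did not pass. It was −0.65 ± 0.31 from BAPN (edgeR adjusted p = 0.795), and BAPN+SB273005 was 0.69 ± 0.31 above BAPN+Cilengitide (edgeR adjusted p = 0.536). With the library set as a term the difference of BAPN+Cilengitide from PBS was 0.08. Only BAPN+SB273005 holds libraries of both sets, so that term rests on its replicate 4 against its replicates 1 to 3. It cannot separate set from group between BAPN+Cilengitide and PBS. Between 116 and 334 estimated counts lay behind each Sox10 value.

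Cdh19 encodes a cadherin that marks Schwann cell precursors and their descendants (ENSMUSG00000047216, chr1:110888326-110977584, minus strand). It was at 0.746, 0.359 and 1.04 FPKM in PBS, at 0.553, 0.480, 0.568 and 0.513 in BAPN, at 0.167, 0.340 and 0.601 in BAPN+Cilengitide and at 0.406, 0.700, 0.854 and 0.661 in BAPN+SB273005. All 4 groups overlapped, and the 2 lowest libraries of all 14 were BAPN+Cilengitide replicates 1 and 2. In the fit with no filter the difference of BAPN+Cilengitide from PBS was −0.91 ± 0.44 (95% interval −1.85 to 0.03; edgeR adjusted p = 0.424). The lowest library held 45 estimated counts, so that this difference rests on few reads.

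S100b encodes a calcium-binding protein of Schwann cells that fat and cartilage cells also make (ENSMUSG00000033208, chr10:76253853-76261159, plus strand). It was at 2.58, 4.90 and 2.70 FPKM in PBS and at 3.64, 4.60, 3.11 and 4.30 in BAPN. It was at 5.78, 5.28 and 4.90 FPKM in BAPN+Cilengitide and at 5.50, 4.77, 3.95 and 3.54 in BAPN+SB273005. PBS replicate 2 reached the lowest BAPN+Cilengitide library to the digits shown, and the other 2 PBS libraries were the lowest of all. The difference of BAPN+Cilengitide from PBS was 0.67 ± 0.28 (95% interval 0.08 to 1.27; edgeR adjusted p = 0.186), and from BAPN 0.48 ± 0.26 (edgeR adjusted p = 0.795), and neither passed. S100b thus had a positive value in the comparison where Sox10 and Cdh19 had negative ones. Cartilage genes (6, among them Acan and Col2a1) summed to 11.1 to 12.6 FPKM in PBS and to 21.6 to 91.0 in BAPN+Cilengitide, and adipocyte genes (8) to 99.6 to 228 and 181 to 338; their part in the S100b values was not tested. The span of S100b overlaps by 1731 bases that of Dip2a on the opposite strand, a gene at a median of 4.46 FPKM, and the strand setting is not given in the sources used here.

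Mbp encodes myelin basic protein, which holds the cytoplasmic faces of compact myelin together (ENSMUSG00000041607, chr18:82475146-82585637, plus strand). At the gene level its highest library was 1.85 times its lowest. It was at 1.99, 1.96 and 1.26 FPKM in PBS, at 1.83, 1.47, 1.34 and 1.76 in BAPN, at 1.79, 1.66 and 1.77 in BAPN+Cilengitide and at 2.06, 2.33, 1.77 and 1.40 in BAPN+SB273005. All groups overlapped, and the largest difference, 0.30 ± 0.18 between BAPN+SB273005 and BAPN (95% interval −0.09 to 0.69; edgeR adjusted p = 0.424), did not pass. Part of the gene overlaps the pseudogene Rpl21-ps8 on the opposite strand over 483 bases, and Rpl21-ps8 was at a median of 8.3 FPKM.

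Mbp was also read by where its transcripts start. The gene has an upstream start, used by the Golli transcripts that are made in neurons and in immune cells, and a downstream start used by the classic myelin transcripts. Of the 12 Mbp transcripts in the deposited table, 3 began upstream, near base 82475146, and 9 downstream. The upstream share of the summed transcript FPKM was 23.8, 13.5 and 16.2% in PBS and 26.5, 14.2, 14.6 and 45.0% in BAPN. It was 48.0, 36.6 and 20.9% in BAPN+Cilengitide and 42.8, 87.5, 25.6 and 23.6% in BAPN+SB273005. The means were 17.8% ± 5.34 (SD, n = 3), 25.1% ± 14.5 (n = 4), 35.2% ± 13.6 (n = 3) and 44.9% ± 29.7 (n = 4), and every pair of groups overlapped.

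BAPN+SB273005 replicate 2 differed most, since its classic transcripts summed to 0.732 FPKM, below the other 13 libraries (2.45 to 6.02 FPKM), while its upstream transcripts summed to 5.15 FPKM, above the others (0.702 to 2.47 FPKM). An upstream transcript with 7 exons was given 2.62 FPKM there (0.933 in BAPN replicate 4). A classic transcript at 0.425 to 2.74 FPKM in the other 13 libraries was given 0. The part that the division of reads among overlapping transcripts plays in these Mbp values was not tested. In exact two-sided permutation tests of the FPKM of each start and of the share, no pair of groups passed (36 tests in this family, which includes Pmp22 and Prx; the lowest Benjamini-Hochberg adjusted value for Mbp was 0.655). The lowest unadjusted p of these permutation tests for Mbp was 0.114. The smallest p they allow is 0.0286, or 0.1 in BAPN+Cilengitide vs. PBS. A single pair could therefore not pass after adjustment, and the outcome does not show that the groups are alike. Summed FPKM of 8 macrophage genes ran from 155 to 299 in PBS, 316 to 771 in BAPN, 498 to 997 in BAPN+Cilengitide and 514 to 1100 in BAPN+SB273005, highest in replicate 2. Whether such cells carry the upstream transcripts was not tested. By estimated counts in place of FPKM, the upstream share was 33.2, 40.1, 54.1 and 60.7% in the same order of groups.

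Pmp22 encodes a membrane protein of compact myelin whose dosage underlies inherited neuropathies, and fibroblasts and other cells also make it (ENSMUSG00000018217, chr11:63128982-63159547, plus strand). It was at 86.5, 95.5 and 92.1 FPKM in PBS and at 82.0 ± 4.84 (SD, n = 4) in BAPN+SB273005, where the 4 libraries ran from 74.8 to 85.2. BAPN ran from 85.4 to 103 and BAPN+Cilengitide from 78.9 to 104. The BAPN+SB273005 libraries lay just below all PBS and all BAPN libraries. The differences were −0.10 ± 0.12 from PBS (95% interval −0.36 to 0.15; edgeR adjusted p = 0.607) and −0.18 ± 0.11 from BAPN (−0.42 to 0.06; edgeR adjusted p = 0.424), and neither passed. Its intervals were the narrowest of the 7 genes, with 10823 to 19031 estimated counts per library.

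Pmp22 has alternative first exons, of which the most upstream is known for use in myelinating Schwann cells and the next for wider use. The next first exon led in 12 of 14 libraries, and the most upstream one made 15.2 to 62.6% of summed transcript FPKM. The most upstream exon led in PBS replicate 3 (51.6%) and in BAPN+SB273005 replicate 2 (62.6%), and the other 12 libraries lay between 15.2 and 27.8%. No pair of groups passed in this share (exact permutation tests, lowest unadjusted p 0.2, lowest Benjamini-Hochberg adjusted value 0.655). As for Mbp, a single pair could not have passed after adjustment.

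Prx encodes periaxin, a scaffold protein that links the membrane of myelinating Schwann cells to their cytoskeleton and that some endothelial cells also make (ENSMUSG00000053198, chr7:27497388-27520214, plus strand). It was at 2.89, 2.92 and 3.08 FPKM in PBS, at 2.56, 3.24, 3.48 and 2.68 in BAPN, at 3.30, 2.89 and 3.31 in BAPN+Cilengitide and at 3.30, 1.55, 2.1 and 2.0 in BAPN+SB273005. In BAPN+SB273005 3 of 4 libraries lay below the other 11 libraries of the study, and replicate 1 lay among the highest. The difference of BAPN+SB273005 from PBS was −0.35 ± 0.20 (95% interval −0.79 to 0.08; edgeR adjusted p = 0.269), and from BAPN+Cilengitide −0.49 ± 0.20 (edgeR adjusted p = 0.523). Without BAPN+SB273005 replicate 1, the library of its group where Prx was highest, Prx passed against PBS, at −0.60 (edgeR adjusted p = 0.0304). It passed in 1 of the 14 fits that left out 1 library (edgeR adjusted p up to 0.458). In the fit where it passed, 1288 of all 13294 genes tested were called. Endothelial genes (8) summed to 68.0 to 81.1 FPKM in PBS and to 65.2 to 118 in BAPN+SB273005, highest in replicate 2, where Prx was lowest.

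Transcripts of Prx from its 2 upstream starts, the nearer of which follows the window printed above, were at 0.954, 1.13 and 1.57 FPKM in PBS and at 0.708, 0.675, 0.850 and 0.828 in BAPN. They were at 2.12, 0.0408 and 0.752 FPKM in BAPN+Cilengitide and at 0.330, 0.646, 0.282 and 0.455 in BAPN+SB273005. Summed over the 2 starts, PBS, BAPN and BAPN+SB273005 formed 3 groups that did not overlap, highest in PBS and lowest in BAPN+SB273005, while BAPN+Cilengitide spanned all of them. From the nearer start alone BAPN replicate 4 was at 0.138 FPKM and BAPN+SB273005 ran from 0.0747 to 0.330. BAPN and BAPN+SB273005 thus overlapped on that start. The share of all transcripts that separate in this way was not computed. For the sums the exact two-sided permutation p was 0.0286 for each pair of PBS, BAPN and BAPN+SB273005, the smallest these group sizes allow. After Benjamini-Hochberg adjustment over the 36 tests it was 0.343. How the division of reads among overlapping transcripts bears on these values was not tested. For Sox10 that division was all or none: the authors' values gave the gene wholly to the most upstream of its starts in 3 libraries (BAPN+Cilengitide replicate 3, BAPN+SB273005 replicates 1 and 4) and gave that start 0 FPKM in the other 11 libraries.

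**Figure D3:**
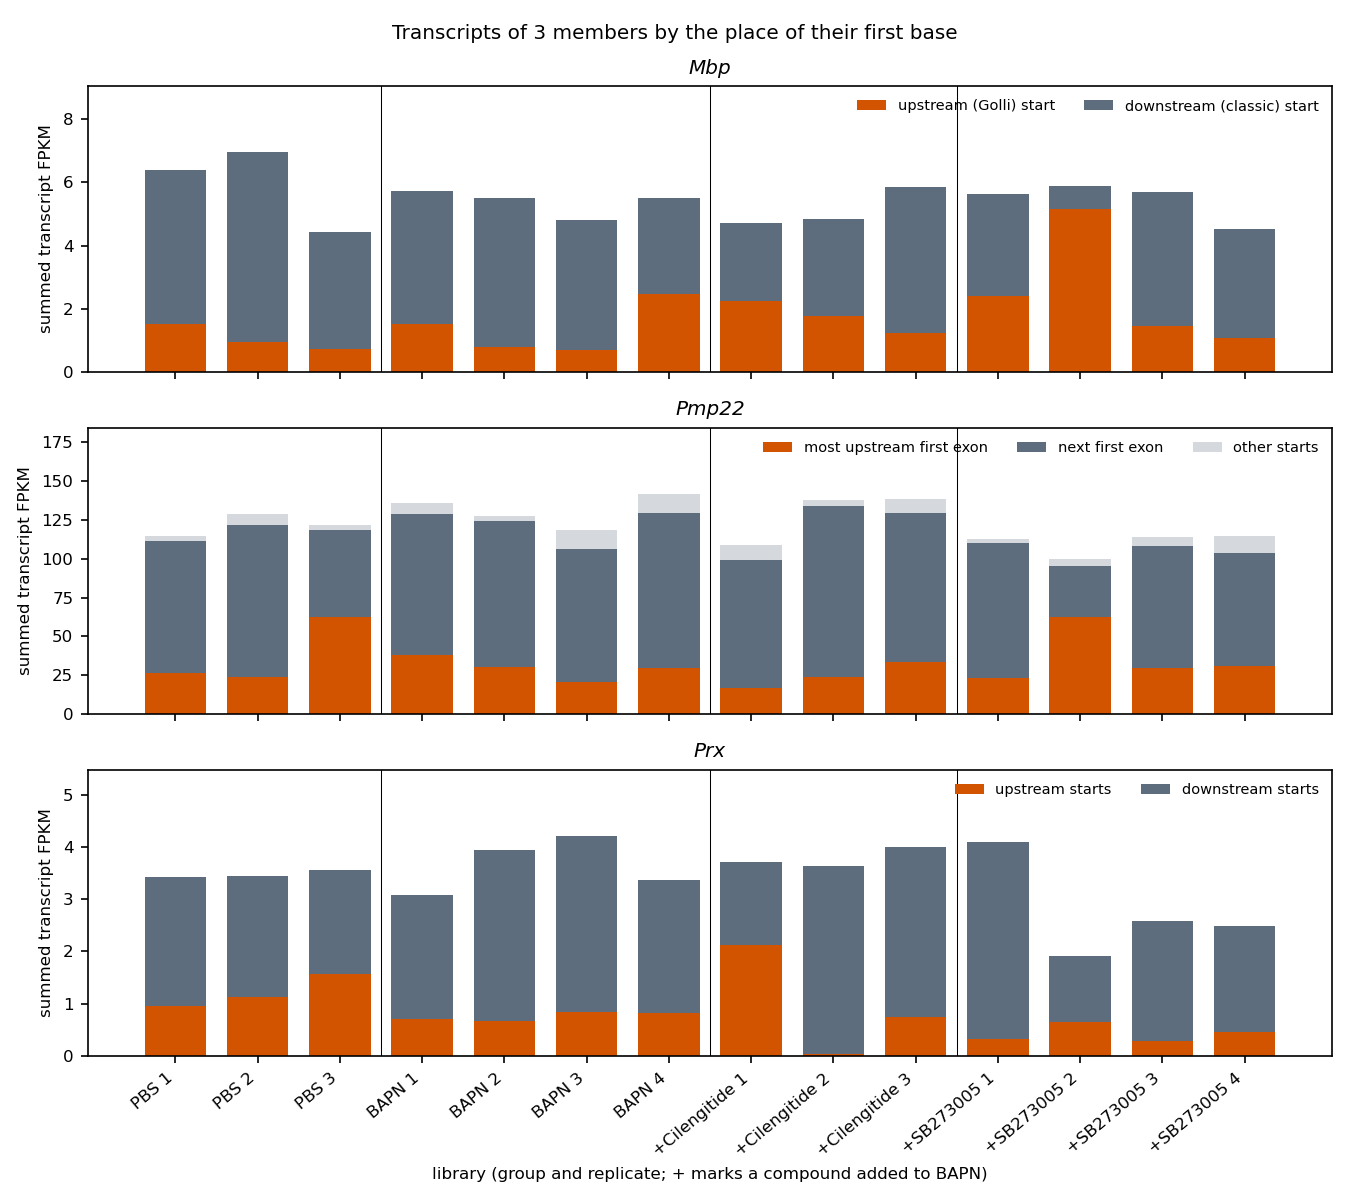
Summed transcript FPKM (y axes) of Mbp, Pmp22 and Prx in each library (x axis, by group and replicate), stacked by where transcripts start. Upstream Mbp transcripts fill 87.5% of the bar of BAPN+SB273005 replicate 2, and the most upstream Pmp22 exon leads there and in PBS replicate 3.

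Ncam1 encodes a neural cell adhesion molecule found on nonmyelinating Schwann cells, neurons and muscle cells (ENSMUSG00000039542, chr9:49502136-49798925, minus strand), and it was the one gene of the 7 that fell. It was at 22.9, 17.4 and 18.5 FPKM in PBS and at 13.3, 14.2, 16.5 and 18.9 in BAPN. It was at 13.1, 11.6 and 15.5 FPKM in BAPN+Cilengitide and at 11.7, 3.74, 11.2 and 12.1 in BAPN+SB273005. All 4 BAPN+SB273005 libraries lay below all PBS and all BAPN libraries, all 3 BAPN+Cilengitide libraries lay below PBS, and BAPN overlapped PBS. Ncam1 fell by 0.97 ± 0.29 on the log2 scale from PBS to BAPN+SB273005 (means 19.6 ± 2.93, n = 3, and 9.70 ± 3.99 FPKM, SD, n = 4; 95% interval −1.59 to −0.34; edgeR adjusted p = 0.0434). Of its 7 transcripts, 1 with 18 exons carried 91.1 to 96.7% of summed transcript FPKM in every library.

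The call of Ncam1 lay close to the threshold. It was kept without BAPN+SB273005 replicate 2 (−0.72, edgeR adjusted p = 0.0101) and without replicate 4 (−1.10, edgeR adjusted p = 0.0364), and lost without any 1 of the other 12 libraries (−0.89 to −1.07, edgeR adjusted p 0.0511 to 0.113). Within the 6 libraries with 0 counts of H2-Ea the difference was −1.08 (edgeR adjusted p = 0.161).

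In the other comparisons Ncam1 had negative differences that did not pass. It was −0.31 ± 0.29 in BAPN vs. PBS (95% interval −0.93 to 0.31; edgeR adjusted p = 0.781) and −0.50 ± 0.31 in BAPN+Cilengitide vs. PBS (−1.18 to 0.17; edgeR adjusted p = 0.402). The latter passed without BAPN+SB273005 replicate 2, a library that counts only toward the pooled spread here (−0.51, edgeR adjusted p = 0.0435). Against BAPN it was −0.66 ± 0.27 with SB273005 (−1.24 to −0.07; edgeR adjusted p = 0.264) and −0.20 ± 0.29 with Cilengitide (−0.82 to 0.43; edgeR adjusted p = 0.920). The direct difference between the inhibitor groups was −0.46 ± 0.29 (−1.08 to 0.16; edgeR adjusted p = 0.632), with an interval that includes 0.

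Smooth muscle genes were also lower in BAPN+SB273005 than in PBS. The summed FPKM of 8 of them was 9000 to 10700 in PBS, 7010 to 10700 in BAPN, 6110 to 8090 in BAPN+Cilengitide and 1180 to 7030 in BAPN+SB273005. BAPN+SB273005 replicate 2 was lowest in both this sum and Ncam1. Replicate 4 of BAPN and of BAPN+SB273005 had like sums (7010 and 7030) but Ncam1 at 18.9 and 12.1 FPKM. No correlation of the sum with Ncam1 was computed. In BAPN+SB273005 vs. PBS 4 of the 8 fell (Myh11, Smtn, Lmod1 and Synpo2, with log2 differences of −1.36, −0.85, −1.32 and −1.47 and adjusted p from edgeR of 0.0494, 0.0293, 0.0136 and 0.0241) and 0 rose, with a median of −1.13. Of all genes tested 5.38% were called lower in that comparison. Per 1000 FPKM of smooth muscle genes, Ncam1 was at 1.63 to 2.55 in PBS and at 1.72 to 3.17 in BAPN+SB273005, and the highest value was that of replicate 2. On that ratio the 2 groups overlapped. Their part in the fall of Ncam1 was not tested.

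**Figure D4:**
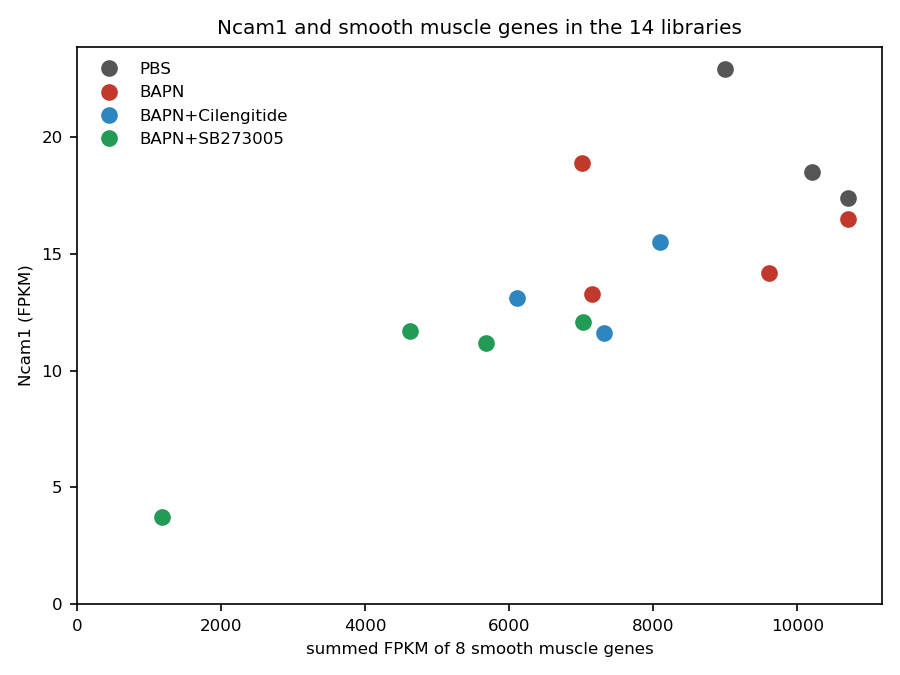
Ncam1 FPKM (y axis) against the summed FPKM of 8 smooth muscle genes (x axis) in the 14 libraries, coloured by group. BAPN+SB273005 replicate 2 is lowest on both axes, at 3.74 and 1180, and the 3 PBS libraries lie at 9000 or more.

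The wider gene set of peripheral nerve was read from 7 lists with 66 genes, of which 27 were tested. In BAPN vs. PBS 0 of 27 passed (0.233% of all genes) and in BAPN+Cilengitide vs. PBS 1 did (3.7%, beside 5.58% of all genes). In BAPN+SB273005 vs. PBS 5 rose and 0 fell (18.5% of the 27, beside 7.82% of all genes called higher and 5.38% called lower), with a median of 0.02 over the 27 and 0.02 over all genes. In the 3 comparisons among BAPN-fed groups 0 passed.

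Egr2, the transcription factor that drives the myelin programme and that other stimulated cells also induce, was at 1.28, 1.10 and 1.57 FPKM in PBS. It was at 1.68 to 3.00 FPKM in BAPN, above every PBS library, with a difference that did not pass (0.79 ± 0.26; edgeR adjusted p = 0.208). It was at 2.56 to 3.45 FPKM in BAPN+Cilengitide and at 2.08 to 4.51 in BAPN+SB273005, and neither group overlapped PBS. Egr2 rose by 1.23 ± 0.28 (edgeR adjusted p = 0.0242) and by 1.37 ± 0.27 (edgeR adjusted p = 0.00776) on the log2 scale. Against BAPN neither inhibitor group passed for Egr2 (0.44 ± 0.25 and 0.58 ± 0.24; edgeR adjusted p 0.801 and 0.264). The myelin genes Mbp and Prx did not pass in either comparison with PBS. Of compact myelin proteins and lipid enzymes, 0 of 4 tested passed in BAPN+Cilengitide vs. PBS (5.58% of all genes). In BAPN+SB273005 vs. PBS 1 of 4 was called higher (Gal3st1) and 0 lower, beside 7.82% and 5.38% of all genes. A link of these genes to Egr2 was not tested. In BAPN+Cilengitide vs. PBS library set and group cannot be told apart.

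Among genes of nonmyelinating Schwann cells 2 of 6 tested rose in BAPN+SB273005 vs. PBS, beside 7.82% of all genes called higher. Gfra2, a receptor for neurturin, rose by 0.87 ± 0.14, from 4.28, 4.35 and 5.09 FPKM in PBS to 7.0 to 9.55 (edgeR adjusted p = 0.00388). Gfra2 was also above every PBS library in BAPN (6.45 to 9.06 FPKM; 0.70 ± 0.14, edgeR adjusted p = 0.0537) and in BAPN+Cilengitide (5.91 to 6.67 FPKM; 0.50 ± 0.15, edgeR adjusted p = 0.0657), where it did not pass, and BAPN+SB273005 did not differ from BAPN past the threshold (0.17 ± 0.13; edgeR adjusted p = 0.521). Cdh2, N-cadherin, rose by 1.41 ± 0.39, from 0.852, 1.02 and 1.35 FPKM to 2.14 to 3.35 (edgeR adjusted p = 0.0324). Neither gene is confined to nerve, and for each the BAPN+SB273005 libraries lay above all PBS libraries. Gal3st1, which makes the myelin lipid sulfatide, rose by 1.82 ± 0.48 (edgeR adjusted p = 0.0292), and the neuronal tubulin Tubb3 by 1.68 ± 0.49 (edgeR adjusted p = 0.0412). Without BAPN+SB273005 replicate 2, Gfra2 and Egr2 rose (2 of 27), Cdh2, Gal3st1 and Tubb3 did not pass (edgeR adjusted p 0.0606, 0.0548 and 0.0908), and Stmn2 and Gldn fell (2 of 27). In that fit 945 of all 13294 genes tested were called higher and 762 lower, so that these counts lay near the background. Within the 6 libraries with 0 counts of H2-Ea, Gfra2 and Cdh2 passed (edgeR adjusted p 0.0332 and 0.0381), and Egr2, Gal3st1 and Tubb3 did not (0.0691, 0.0719 and 0.105). There 409 of all 13294 genes tested were called higher and 123 lower.

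Genes of noncompact myelin, nodes and axon contact had negative medians in all 3 comparisons with PBS, with 0 of 4 tested passing in each. The medians were −0.31 in BAPN, −0.47 in BAPN+Cilengitide and −0.75 in BAPN+SB273005. The summed FPKM of the 11 genes was 17.7 to 22.8 in the PBS libraries and 10.3 to 14.7 in the other 11, with no overlap. Gldn and Cnp made up most of that sum in every group mean, and not all genes shared its direction: Nfasc, which was too low to be tested, had a mean of 0.164 FPKM in PBS and of 0.362, 0.640 and 0.701 in BAPN, BAPN+Cilengitide and BAPN+SB273005. Gldn, gliomedin, which Schwann cells use to gather sodium channels at nodes, was at 7.29, 8.28 and 8.91 FPKM in PBS, 4.17 to 5.47 in BAPN, 2.58 to 6.21 in BAPN+Cilengitide and 1.02 to 5.39 in BAPN+SB273005. Its PBS libraries were above all others, and its largest difference, −1.20 ± 0.40 in BAPN+SB273005 vs. PBS, did not pass with all libraries (edgeR adjusted p = 0.0639). The share of all genes that separate PBS from every other library, as Gldn and the sum did, was not computed. Against PBS, 14.6% (BAPN), 31.9% (BAPN+Cilengitide) and 23.2% (BAPN+SB273005) of all genes tested did not overlap in either direction. For BAPN and BAPN+Cilengitide, library set and group cannot be told apart.

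Axon and neuron genes set a single library apart. BAPN+SB273005 replicate 2 had the highest FPKM of all 14 libraries for 13 of 14 such genes, among them Nefl, a neurofilament subunit (2.11 FPKM, 0.368 or less in the others), Prph, peripherin (5.93, 2.01 or less), and Snap25, a protein of synaptic vesicle release (1.36, 0.320 or less). The exception was Uchl1, at 28.0 FPKM in that library and 49.6 to 70.1 in the others. Chat, Nefm and Elavl4 were low even in that library (0.107, 0.219 and 0.281 FPKM). The share of all genes tested that were highest in that library was not computed. Ngfr, a neurotrophin receptor of nonmyelinating Schwann cells and neurons, was at 4.69 FPKM there and at 0.297 to 0.929 in the others, and Gap43, a protein of growing axons, at 3.12 and at 0.285 to 1.53. Its Sox10, 1.01 FPKM, and its Erbb3, 0.751 FPKM, lay within the range of the other libraries. In the same library Prx, Pmp22, Ncam1 and the classic transcripts of Mbp were the lowest of all 14. For Pmp22 the margin was small (74.8 FPKM, with 78.9 in BAPN+Cilengitide replicate 1). The share of all genes tested that were lowest in that library was not computed. Mbp at the gene level was the highest of all 14 there (2.33 FPKM), and its classic value depends on how reads were divided among transcripts.

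**Figure D5:**
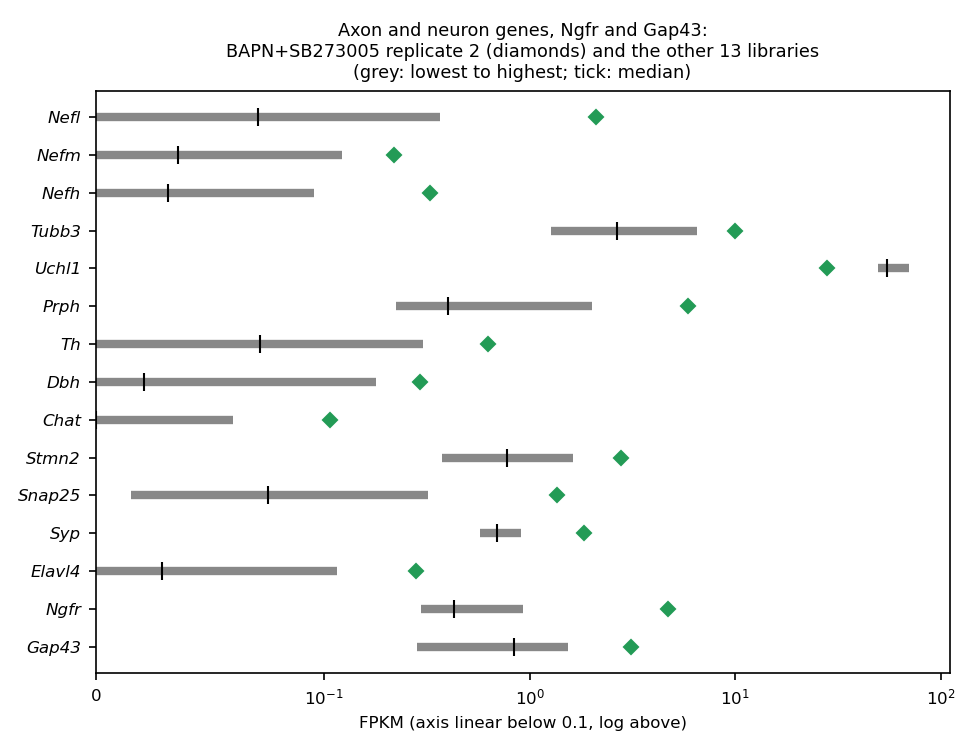
FPKM (x axis, linear below 0.1 and logarithmic above) of 13 of the 14 axon and neuron genes, Ngfr and Gap43 (y axis); diamonds are BAPN+SB273005 replicate 2, grey bars run from the lowest to the highest of the other 13 libraries, and ticks are their medians. The diamond lies right of the bar for each gene but Uchl1.

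The 5 tested genes most like Sox10 by Pearson's r of log2(FPKM + 1) over the 14 libraries, after group means were taken off, were Neu3 (0.90), Rspo1 (0.84), Krt19 (0.84), Gpr182 (0.82) and Dnajc27 (0.82). Those most like Mbp were Mfsd13a, Stat5a and Nlrx1 (each 0.92), Mpdu1 (0.91) and Tmem219 (0.90). None of these 10 is in the 7 nerve lists. On the same measure r between pairs of the 7 genes ran from −0.76 (S100b and Cdh19) to 0.57 (Prx and Ncam1), with Sox10 at 0.46 with S100b and at −0.06 with Cdh19. These values describe libraries that share depth and tissue makeup.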

How the data were processed

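RNA was extracted from mouse ascending aorta, reverse-transcribed and sequenced, per the labels' protocols. HISAT2 2.2.1, StringTie 2.1.6 and the build mm10 are named in the submitters' processing notes; the annotation release, read filters and strand setting of that run were not given in the sources used here. Overlapping and antisense genes are therefore uncertain. The authors deposited FPKM per gene and per transcript, normalized by length and library size. The authors also deposited an estimated count per gene and transcript, in whole numbers, and the gene count equalled the sum over transcripts for 7 of 7 genes. The deposited FPKM of a gene need not equal the sum over its transcripts. Coordinates are those of the deposited tables.

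Groups came from the labels. Genes at 1 FPKM or more in at least 3 libraries (13294 of 32289) were tested on the counts with edgeR 4.0.16 (TMM, quasi-likelihood, all 14 libraries in 1 fit, R 4.3.3) and Benjamini-Hochberg adjustment, threshold 0.05; SEs were worked back from F, and 95% intervals are approximate. Because these counts are estimates, the counting error that edgeR assumes is only approximate. DESeq2 1.42.0, limma 3.58.1 on log2(FPKM + 1) or log2(FPKM + 0.1), other size factors, no filter, only the groups compared, a replicate block, a library-set term and leaving out each library were alternatives. Scripts were tested on simulated data. Replicates of a group differed by more than sampling noise (chi-square per degree of freedom 59.8 or more). Same-numbered libraries of BAPN+Cilengitide and BAPN+SB273005 deviated together (r 0.291, 0.152 and 0.21 for numbers 1 to 3). Their different-numbered pairs ran from −0.236 to 0.223, highest for BAPN+Cilengitide replicate 3 with BAPN+SB273005 replicate 4. A pairing by number rests on the correlations alone, since no label states a shared batch, and same-numbered libraries of the other groups did not all exceed 0.1. Start-site values were compared with exact permutation tests.

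The 7 genes and all gene lists were chosen with earlier results of these data known. Named were the 7 genes, up to 3 passing genes of each nerve list by smallest p, genes of lists where their level stands beside a result, and the 5 genes most like Sox10 and Mbp; Gldn, Stmn2, Ngfr, Snap25 and Erbb3 were named after their values were seen. Some listed genes are counted but not reported here by name.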

Additional observations from a re-analysis of the deposited data

Results flagged for a closer look

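Ncam1 in BAPN+SB273005 replicate 2 was at 3.74 FPKM, far from the other 3 libraries of its group (11.2, 11.7 and 12.1 FPKM): the gap to the nearest was 0.898 of the whole range of the group. In all, 14 groups of 4 libraries were examined in this way (7 genes in BAPN and in BAPN+SB273005), and chance marks about 1 in 20. In the same library the sum of smooth muscle genes was 1180 FPKM and 13 of 14 axon and neuron genes were at their highest. The share of all genes tested that were highest there was not computed.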

How the results depend on the processing

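Of 798 recomputed values, 748 kept direction and call, 33 turned direction, 15 lost and 2 gained a call; no value that turned had passed. Genes called for BAPN vs. PBS, BAPN+Cilengitide vs. PBS, BAPN+Cilengitide vs. BAPN, BAPN+SB273005 vs. BAPN and BAPN+SB273005 vs. BAPN+Cilengitide were 480, 1465, 21, 395 and 39 with DESeq2, against 31, 742, 0, 4 and 0. With no filter the first 2 were 3 and 421, BAPN+SB273005 vs. PBS 1006 (against 1754) and vs. BAPN 0. With only the groups compared BAPN vs. PBS had 105, BAPN+SB273005 vs. PBS 534 and vs. BAPN 0. limma with 1 and 0.1 gave 15 and 72 for BAPN vs. PBS and 15 and 14 for BAPN+SB273005 vs. BAPN. With the library-set term these were 3 and 12, with 5 for BAPN+Cilengitide vs. PBS and 12 between the inhibitors; only libraries at 0 H2-Ea gave 532 for BAPN+SB273005 vs. PBS.

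Ncam1 in BAPN+SB273005 vs. PBS was lost (0 of 6 genes called) with no filter (edgeR adjusted p = 0.0815), with only the groups compared (0.157) and within the H2-Ea set (0.161); over its alternatives adjusted p ran from 0.00998 to 0.161. Directions turned for Sox10 in BAPN+SB273005 vs. BAPN (−0.01 with no filter and with limma and 0.1, 0.0 with limma and 1, −0.59 with the library-set term) and vs. PBS (0.10 with the block, 0.15 within the H2-Ea set, 0.14 with the set term), and with the set term in BAPN vs. PBS (0.73) and BAPN+Cilengitide vs. PBS (0.08). They turned for Pmp22 in BAPN+Cilengitide vs. BAPN (−0.03 with limma), and with the set term for Mbp (0.44 in BAPN vs. PBS, −0.14 in BAPN+SB273005 vs. BAPN, −0.30 between the inhibitors) and S100b (−0.09 in BAPN+SB273005 vs. BAPN). The set term is estimated within BAPN+SB273005 alone, from its replicate 4 against its replicates 1 to 3. The cause of these turns was not tested.

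The replicate block called 141 genes in BAPN vs. PBS and 20 in BAPN+SB273005 vs. BAPN, put Sox10 in BAPN vs. PBS at 0.07 and Ncam1 in BAPN+SB273005 vs. PBS at −1.15 (edgeR adjusted p = 0.0188). Of 19 same-numbered pairs over all groups 11 correlated over 0.1 (r −0.157 to 0.327). Between the inhibitors, where all 3 did, the block changed no call (0 genes called with and without it).

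Leaving out 1 library gave 0 to 1 of the 6 genes in BAPN+Cilengitide vs. PBS and in BAPN+SB273005 vs. PBS. Genes called ran from 2 (without PBS replicate 2) to 186 in BAPN vs. PBS, 109 to 1249 in BAPN+Cilengitide vs. PBS, 498 to 1988 in BAPN+SB273005 vs. PBS, 0 to 1 in BAPN+Cilengitide vs. BAPN, 0 to 79 in BAPN+SB273005 vs. BAPN and 0 to 15 between the inhibitors. Log2 ranges that crossed 0 were, for Mbp, −0.29 to 0.02 (BAPN vs. PBS), −0.13 to 0.18 (BAPN+Cilengitide vs. PBS) and −0.01 to 0.26 (between the inhibitors); for Sox10, −0.25 to 0.12 (BAPN vs. PBS), −0.18 to 0.22 and −0.24 to 0.16 (BAPN+SB273005 vs. BAPN and vs. PBS); for Pmp22, −0.07 to 0.14 (BAPN+Cilengitide vs. BAPN); and for Prx, −0.08 to 0.09 (BAPN vs. PBS). The upstream share of Mbp by counts was 33.2, 40.1 and 54.1% in PBS, BAPN and BAPN+Cilengitide. Depth limits Sox10 and Cdh19, at 45 to 334 counts per library.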

Other observations

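Marker lists of other cell types also differed among libraries. Of all genes tested, 7.82% were called higher and 5.38% lower in BAPN+SB273005 vs. PBS. In BAPN+Cilengitide vs. PBS 5.58% were called in either direction, and in BAPN vs. PBS 0.233%. Summed FPKM of 8 fibroblast genes was 757 to 1010 in PBS and 1390 to 2500 in BAPN+SB273005, and 3 of the 8 rose there (Col1a1, Dcn and Lum, with log2 differences of 1.48, 1.06 and 2.02 and adjusted p from edgeR of 0.0244, 0.0431 and 0.0133). Of 8 macrophage genes 7 rose in BAPN+Cilengitide vs. PBS and 8 in BAPN+SB273005 vs. PBS, with medians of 2.04 and 2.02. Of the endothelial list 1 of 8 rose in BAPN+SB273005 vs. PBS (Cdh5, by 1.53; edgeR adjusted p = 0.0441), and of the adipocyte list 1 of 8 (Fabp4, by 1.31; edgeR adjusted p = 0.0434). Cardiomyocyte genes summed to 41.8 to 67.0 FPKM in PBS, 13.5 to 25.8 in BAPN, 16.9 to 86.6 in BAPN+Cilengitide and 49.3 to 143 in BAPN+SB273005. Myh7 fell by 5.31 in BAPN vs. PBS (edgeR adjusted p = 0.0400), where library set and group cannot be told apart. It was at 4.51 to 5.08 FPKM in PBS, at most 0.26 in BAPN and 0.251 in BAPN+Cilengitide, and 0.261 to 7.54 in BAPN+SB273005. Skeletal muscle genes (6) ran from 33.0 to 1950 FPKM within PBS alone. Perineurial genes (4), of the sheath around nerve bundles, summed to 14.3 to 16.9 FPKM in PBS and 9.15 to 17.0 in BAPN+SB273005, and 0 of 2 tested passed.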
